A study of Mus musculus with 6 samples.

Results

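Transcripts of 10 amino acid transporter genes were followed in regulatory T cells, the suppressive T cell lineage defined by the transcription factor FOXP3. The genes are Slc7a5, Slc3a2, Slc1a5, Slc1a4, Slc7a1, Slc7a6, Slc7a11, Slc38a1, Slc38a2 and Slc43a1, chosen by name, and all 10 were found among the 47643 genes of each deposited table. Cells positive for CD4 and for the GFP reporter of FOXP3 were sorted by flow cytometry from bone marrow. The myeloma group is 3 marrows of mice injected with Vk*MYC, labelled multiple myeloma, and the control group is 3 marrows of control mice. Vk*MYC is a transgenic mouse model of this plasma cell cancer in which regulatory elements of an immunoglobulin kappa gene drive MYC in B lineage cells, and the sorted cells are T cells of the host. Both groups carry the FOXP3-GFP reporter. The labels state neither age, sex and strain nor the time after injection. The myeloma libraries carry the numbers 3, 4 and 5 and are called MM3, MM4 and MM5, and the control libraries carry 1, 3 and 5 and are called CT1, CT3 and CT5. Expected counts, estimated by RSEM for each gene, summed to between 10240620 and 12008165 per library in myeloma and to between 11688282 and 13314631 in controls.

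Foxp3 stood between 991 and 1068 CPM, counts scaled to library size, in myeloma libraries and between 992 and 1247 CPM in control libraries, and Cd4 and Cd3e were present in all 6. A list of 8 regulatory T cell markers summed to 5050 to 5256 CPM in myeloma and 4432 to 5872 CPM in controls. Of these 8, Tnfrsf18 was called higher in myeloma (log2 fold change 0.69, edgeR adjusted p = 0.00776) and none lower. Il2ra lay lower in every myeloma library but was not called (adjusted p = 0.131). Other cell types were also detected. Summed over lists of 10 markers each, of which 9 matched for red cells, the plasma cell list reached 293 to 562 CPM in myeloma and 155 to 226 CPM in controls, and macrophage and monocyte transcripts 66.4 to 510 CPM in myeloma and 46.8 to 119 CPM in controls. Neutrophil transcripts summed to 139 to 468 CPM in myeloma and 64.9 to 185 CPM in controls, and NK cell transcripts to 10.1 to 46.8 CPM and 9.71 to 11.8 CPM. The highest NK cell sum, in MM5, came mostly from Tyrobp, while Ncr1, Klra8, Klra4 and Klre1 were each below 1 CPM there. Of the 4 NK cell markers tested, Gzma was called higher in myeloma, beside 6.33% of all genes tested, and Tyrobp was not called. Gzma entered the test through its myeloma libraries alone, with 1, 1 and 8 counts in control CT1, CT3 and CT5. B cell transcripts summed to 28.8 to 74.7 CPM in myeloma and 47.1 to 301 CPM in controls, and red cell transcripts to 3864 to 4796 CPM and 6746 to 14775 CPM. Most of the plasma cell sum in controls came from Prdm1, Xbp1 and Irf4, which regulatory T cells also express. Jchain, the joining chain of secreted antibodies and a more specific marker, held 37.7, 118 and 199 CPM in myeloma MM3, MM4 and MM5, against 3.67, 0.601 and 3.70 CPM in control CT1, CT3 and CT5. No marker in these lists was at 0 in all 6 libraries. In such bulk samples, fewer cells of a type and less RNA per cell cannot be told apart.

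T cells take up amino acids through carriers that differ in what they move and what drives them. Sodium-coupled system A carriers (Slc38a1, Slc38a2) concentrate glutamine, alanine and other small neutral amino acids, and system ASC exchangers (Slc1a4, Slc1a5) swap small neutral amino acids across the membrane. A further family works as pairs, in which the heavy chain encoded by Slc3a2 (4F2hc, CD98) brings a light chain of the Slc7 family to the cell surface. The light chain sets the cargo: leucine and other large neutral amino acids for Slc7a5, cationic amino acids in exchange for glutamine for Slc7a6, and cystine in exchange for glutamate for Slc7a11. Slc7a1 carries arginine and lysine, and Slc43a1 large neutral amino acids, without Slc3a2. Activated T cells are known to raise several of these carriers, and amino acid supply feeds the growth kinase complex mTORC1.

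In regulatory T cells of myeloma-bearing marrow, the system A gene Slc38a2 was called lower than in controls, and the other transporters did not pass the test apart from the cystine carrier gene Slc7a11. Slc7a11 was called higher on 1 to 33 counts per library, it entered the test through its myeloma libraries alone, and the call was lost whichever library was left out. This is 1 of 10 members higher and 1 lower in edgeR's quasi-likelihood test at an adjusted p of 0.05. Among the 13235 genes tested, 6.33% were called higher and 4.69% lower, 11% in either direction, and against that background 2 calls among 10 genes are not read as a result about the members as a group. Their median log2 fold change was -0.07, beside 0.02 over all genes tested. CPM of the 2 groups did not overlap for 3 of the 10 members (Slc38a1, Slc38a2 and Slc7a11), beside 33.3% of all genes tested. The series mentions 3 marrows per group, and nothing further in the labels ties a library to its own mouse or litter. The p-values therefore rest on library-to-library spread, whose animal and technical parts cannot be told apart.

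**Figure D1:**
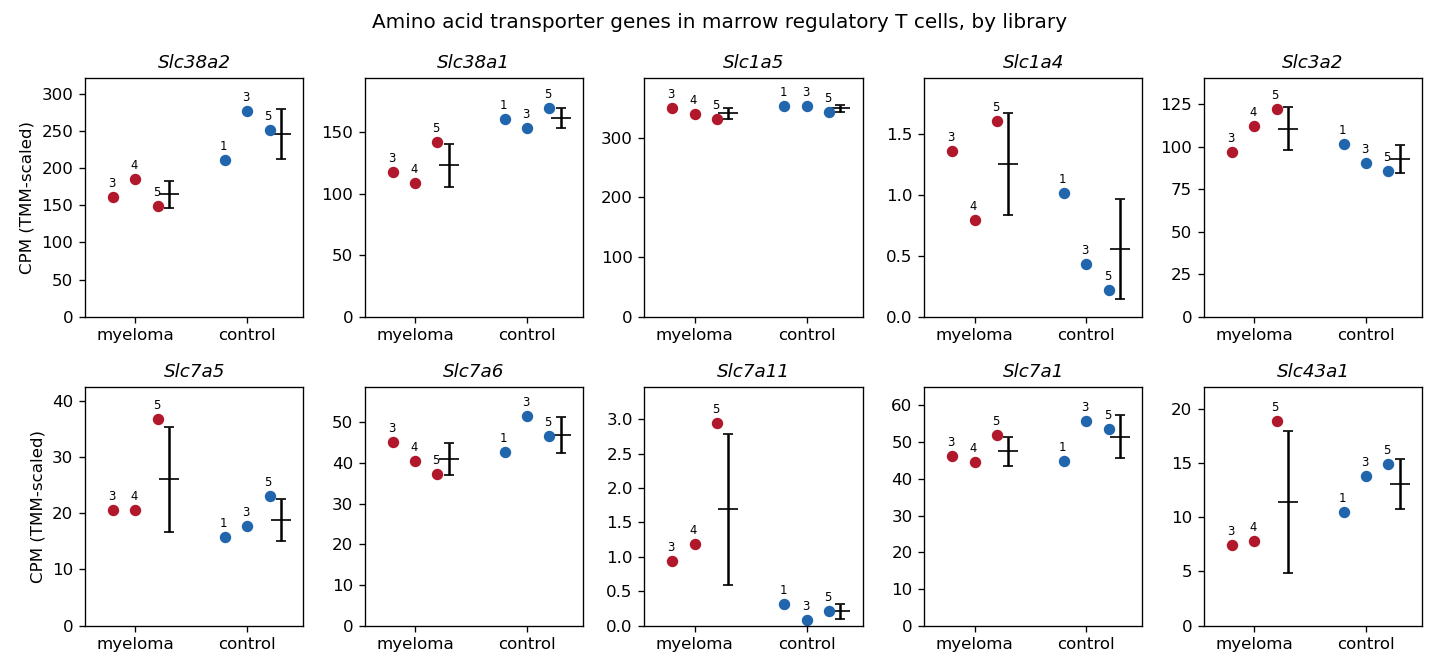
Level of each transporter in CPM on a linear axis from 0, with 3 myeloma libraries left and 3 control libraries right in each panel. Points are libraries with their replicate number, and the bar beside them is the mean with its SD; Slc38a2, Slc38a1 and Slc7a11 are the panels whose groups do not overlap.

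Per transcript length, in TPM, the deposited length-scaled abundance, the glutamine exchanger Slc1a5 was the most abundant of the 10 in every library. It held 210.93, 185.58 and 194.39 TPM in myeloma MM3, MM4 and MM5 and 243.61, 240.43 and 252.30 TPM in control CT1, CT3 and CT5. That was 47.8% to 51.8% of the members' summed TPM in myeloma and 47.7% to 48.6% in controls. Below it by mean TPM in myeloma came Slc3a2 (89.3), Slc38a2 (48.1), Slc38a1 (22.3), Slc7a6 (14.99), Slc7a5 (10.4), Slc7a1 (9.11), Slc43a1 (6.42), Slc1a4 (0.437) and Slc7a11 (0.310). In controls the order was Slc3a2 (93.9), Slc38a2 (85.1), Slc38a1 (34.98), Slc7a6 (20.3), Slc7a1 (12.7), Slc7a5 (9.59), Slc43a1 (8.76), Slc1a4 (0.230) and Slc7a11 (0.0767).

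Neighbours in this order were often not separable. In myeloma the library ranges of Slc7a6 and Slc7a5, of Slc7a5 and Slc7a1, of Slc7a1 and Slc43a1, and of Slc1a4 and Slc7a11 overlapped. In controls those of Slc3a2 and Slc38a2, of Slc7a1 and Slc7a5, of Slc7a5 and Slc43a1, and of Slc1a4 and Slc7a11 overlapped. Slc3a2 and Slc38a2 had ranges that overlapped in controls, 82.44 to 112.41 and 74.79 to 90.86 TPM, while in myeloma they stood apart at 83.71 to 92.72 and 40.66 to 54.51 TPM.

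TPM did not share a common baseline between the groups. Over the 10071 genes with a mean of at least 5 TPM, the median log2 ratio of mean TPM, myeloma over control, was -0.23, and 73.0% of these genes had a lower mean TPM in myeloma. Slc1a5, Slc7a1 and Slc7a6 lay lower in every myeloma library on the TPM scale, while on the CPM scale their groups overlapped. Relative to the median of these genes their log2 TPM ratios were -0.09, -0.25 and -0.21. Group differences of single genes below are therefore tested on counts. The ratio of Slc7a5 to Slc3a2 was tested in TPM, and shares of a sum are given in TPM.

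**Figure D2:**
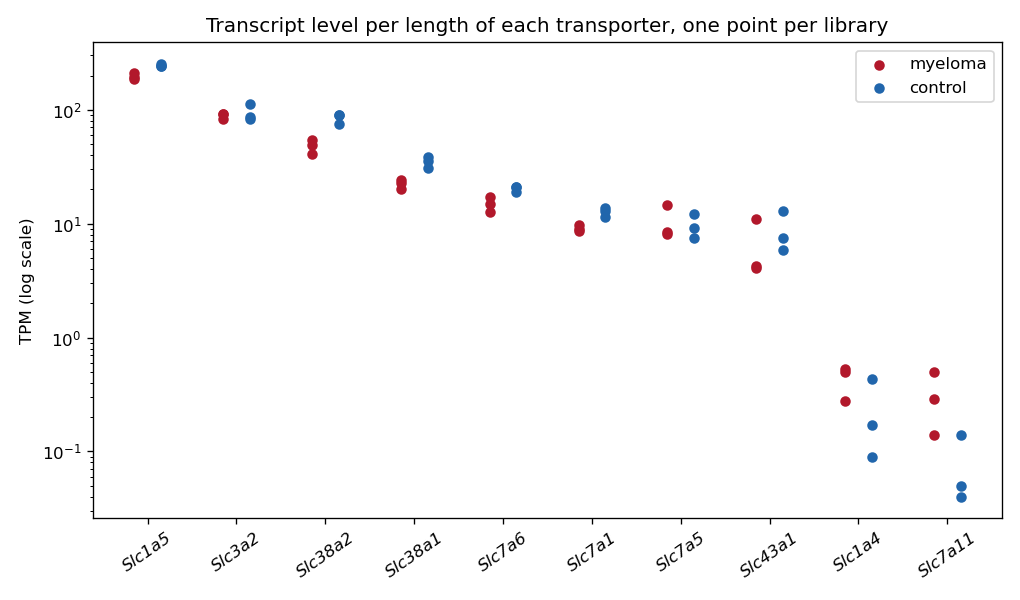
TPM of each transporter on a log axis, ordered by the control mean, with myeloma libraries left of control libraries for each gene. Slc1a5 lies between 185.58 and 252.30 TPM and Slc1a4 and Slc7a11 below 1 TPM.

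The decrease called among the members was in system A. Slc38a2 (ENSMUSG00000022462.6; 15:96687392-96699730 on the minus strand of GRCm38, the assembly of the authors' mm10), a carrier known to be induced when cells lack amino acids, held 160.8, 185.1 and 148.7 CPM in myeloma MM3, MM4 and MM5, against 210.7, 277.8 and 251.3 CPM in control CT1, CT3 and CT5. Every myeloma library lay below every control library, and CT1 was the lowest control. The log2 fold change was -0.58 (SE 0.12; edgeR adjusted p = 0.0198), a mean of 165 ± 18.5 CPM in myeloma and 247 ± 33.8 CPM in controls (SD, n = 3 each). Without MM3 the adjusted p was 0.0681, without CT3 it was 0.0825 and without CT5 it was 0.0624, so the call was lost in those 3 fits of 5 libraries. The log2 fold change stayed between -0.69 and -0.49 whichever library was left out.

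Slc38a1 (15:96571418-96642913, minus strand), the neighbouring carrier gene of the same family with a preference for glutamine, had 117.9, 109.0 and 142.5 CPM in myeloma MM3, MM4 and MM5, against 160.7, 153.8 and 170.0 CPM in control CT1, CT3 and CT5. Its groups did not overlap either, with MM5 closest to the controls. It missed the threshold narrowly, at a log2 fold change of -0.39 (SE 0.11; edgeR adjusted p = 0.05004). It was called lower under 10 of 17 other settings, at adjusted p between 0.00225 and 0.0467; these included limma-voom (0.0427), DESeq2 (0.00939) and the fit without MM5 (0.0129). It was not called with the effective-length offset (0.0681) or with the replicate number as a block (0.171). Nor was it called without MM3 (0.128), MM4 (0.153), CT1 (0.0850), CT3 (0.113) or CT5 (0.134). Summed, both carriers held 279, 294 and 291 CPM in myeloma MM3, MM4 and MM5, against 371, 432 and 421 CPM in control CT1, CT3 and CT5. Their share of the members' summed TPM was 16.2% to 19.2% in myeloma and 21.6% to 24.5% in controls.

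B cell and red cell markers moved the same way as the system A genes. The B cell markers summed to 28.8, 44.1 and 74.7 CPM in myeloma MM3, MM4 and MM5, against 47.1, 242 and 301 CPM in control CT1, CT3 and CT5. CT1 had a B cell sum within the myeloma range, a Slc38a2 level of 210.7 CPM and a Slc38a1 level of 160.7 CPM. Among the B cell markers 4 of 10 tested were called lower and none higher, and among the red cell markers 5 of 8 lower and none higher. Of the B cell markers called lower, Cr2 entered the test through its control libraries alone. Over all genes tested, 4.69% were called lower. The part of either cell type in the result was not tested.

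The printed promoter of Slc38a2, shown because it belongs to the transporter that was called lower, is the 250 bases before its RefSeq start on GRCm38.p6, at 15:96699729-96699978 on the minus strand. The capitals mark the letters TGACNNNGC, the core of the antioxidant response element, found 27 bases before the start.
Slc38a2: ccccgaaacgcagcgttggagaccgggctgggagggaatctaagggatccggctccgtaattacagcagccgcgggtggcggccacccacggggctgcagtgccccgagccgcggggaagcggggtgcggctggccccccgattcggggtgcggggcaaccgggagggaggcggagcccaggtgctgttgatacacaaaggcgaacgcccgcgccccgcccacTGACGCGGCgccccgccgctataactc
Searched on both strands, this core occurs in the same window of 11.5% of 27025 genes.

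The system ASC exchangers did not pass the test. Slc1a5 (ASCT2, 7:16781340-16798274, plus strand), a main route for glutamine, held 350.5, 340.5 and 331.6 CPM in myeloma MM3, MM4 and MM5, against 353.0, 353.3 and 342.7 CPM in control CT1, CT3 and CT5. The groups overlapped and all 6 values lay within a narrow band. Its log2 fold change came to -0.04 (SE 0.08; edgeR adjusted p = 0.797), and no setting tried moved it outside -0.11 to -0.02. Slc1a4 (ASCT1, 11:20302180-20332713, minus strand), which carries serine, alanine and cysteine, was near the limit of detection at 16, 8 and 18 counts in myeloma MM3, MM4 and MM5, against 13, 5 and 3 counts in control CT1, CT3 and CT5. CT1 lay inside the myeloma range. Its log2 fold change of 1.17 (SE 0.69; edgeR adjusted p = 0.307) was not called. The ratio of the groups' summed counts per scaled library size was 2.31, with an exact 95% interval of 1.34 to 4.11 that covers counting error only.

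The heavy chain and its main light chains were also not called. Slc3a2 (19:8706882-8723369, minus strand) held 97.0, 112.3 and 122.3 CPM in myeloma MM3, MM4 and MM5, against 101.8, 90.3 and 85.7 CPM in control CT1, CT3 and CT5. CT1 exceeded MM3, so the groups overlapped. On the log2 scale the fold change was 0.26 (SE 0.11; edgeR adjusted p = 0.163). Slc7a5 (LAT1, 8:121881150-121907694, minus strand), the leucine carrier, held 20.7, 20.6 and 36.8 CPM in myeloma MM3, MM4 and MM5, against 15.8, 17.7 and 23.0 CPM in control CT1, CT3 and CT5. MM5 was the single high library, and the other myeloma values lay inside the control range. The fitted log2 fold change was 0.47 (SE 0.25; edgeR adjusted p = 0.257), and it was 0.13 (adjusted p = 0.710) without MM5. That library also had the highest sums of macrophage and monocyte markers (510 CPM) and of plasma cell markers (562 CPM), and their part in the Slc7a5 level was not tested.

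Slc7a6 (y+LAT2, 8:106168857-106198706, plus strand), which exports arginine in exchange for glutamine and sodium, held 45.03, 40.4 and 37.1 CPM in myeloma MM3, MM4 and MM5, against 42.6, 51.5 and 46.5 CPM in control CT1, CT3 and CT5. The groups overlapped, and the log2 fold change of -0.20 (SE 0.11; edgeR adjusted p = 0.297) was not called.

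Among the light chains that pair with Slc3a2, Slc7a6 and Slc7a5 made up most transcripts per length. Slc7a6 was 52.1%, 58.3% and 38.4% of the summed light chain TPM in myeloma MM3, MM4 and MM5, against 61.1%, 63.3% and 58.0% in control CT1, CT3 and CT5. Slc7a5 was 25.4%, 31.7% and 43.8% in myeloma MM3, MM4 and MM5, against 24.0%, 27.6% and 33.6% in control CT1, CT3 and CT5. MM5 was the single library in which Slc7a5 (14.53 TPM) exceeded Slc7a6 (12.75 TPM).

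The remaining light chains were scarce. Slc7a7 (y+LAT1) held 1.33 to 2.22 TPM in myeloma and 1.92 to 2.30 TPM in controls, and its log2 fold change was -0.05 (adjusted p = 0.959 by edgeR). Slc7a8 (LAT2) held 0.27 to 1.47 TPM in myeloma and 0.33 to 0.70 TPM in controls, with a log2 fold change of 0.86 (adjusted p = 0.507 by edgeR). Slc7a10 (Asc-1), added to the sum after its values were seen, held 5.56, 0.66 and 1.73 TPM in myeloma MM3, MM4 and MM5, against 0.25 to 1.95 TPM in controls. Its 5.56 TPM in MM3 rested on 25 counts, while CT1 had 28 counts at 1.95 TPM. It made up 16.7% of the MM3 sum. The light chain shares of MM3, and its ratio of heavy chain to light chains, therefore depend on including Slc7a10.

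Heavy chain transcripts outnumbered those of the summed light chains in every library, by 2.52, 3.57 and 2.79 times in myeloma MM3, MM4 and MM5 and by 3.62, 2.50 and 2.39 times in control CT1, CT3 and CT5. The ratio of Slc7a5 to Slc3a2 TPM was 0.101, 0.0888 and 0.157 in myeloma MM3, MM4 and MM5, against 0.0664, 0.110 and 0.141 in control CT1, CT3 and CT5. The difference of the means, 0.00971, was within the spread of either group (p = 0.8, two-sided exact permutation test over the 6 libraries, whose smallest possible p is 0.1).

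**Figure D3:**
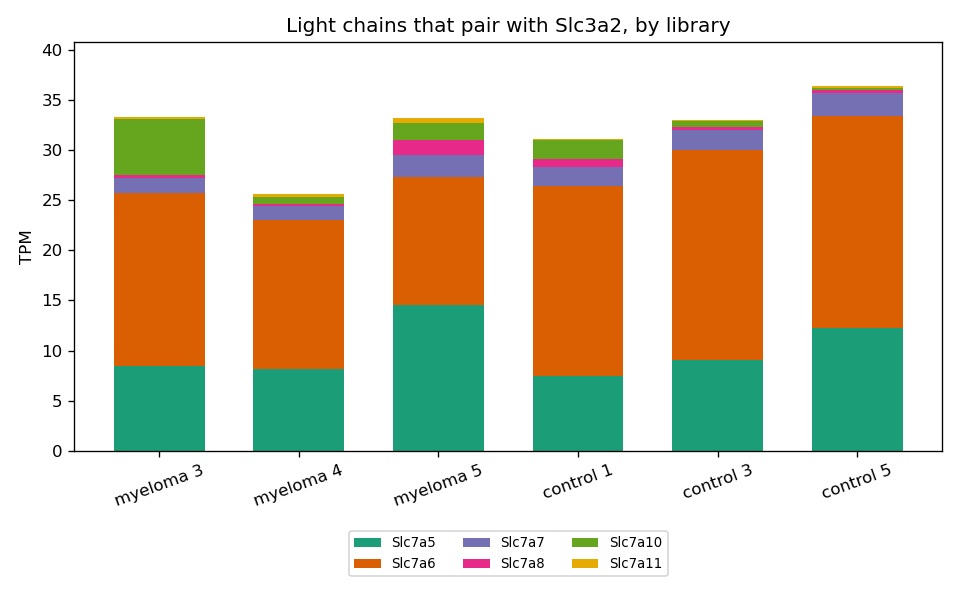
Stacked TPM of the 6 light chains that pair with Slc3a2, with 3 myeloma libraries left and 3 control libraries right. Slc7a6 is the largest block in 5 of the 6 libraries, and Slc7a5 is the largest in MM5 at 14.53 TPM.

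Slc7a11 (xCT, 3:49892526-50443614, minus strand), which imports cystine for glutathione synthesis, was the member called higher, from very few reads. Its control libraries lay below the filter on low counts, so it was tested only because its myeloma counts were high, and with a filter of at least 1 CPM in 3 samples it was not tested. It had 11, 12 and 33 counts in myeloma MM3, MM4 and MM5, against 4, 1 and 3 counts in control CT1, CT3 and CT5. In CPM this was 0.931, 1.19 and 2.95 in myeloma MM3, MM4 and MM5, against 0.312, 0.0859 and 0.218 in control CT1, CT3 and CT5. Every myeloma library lay above every control library, and MM5 stood highest. In log2 units the fold change was 2.96 (SE 0.75; edgeR adjusted p = 0.0388). The ratio of summed counts per scaled library size, 56 counts in myeloma and 8 in controls, was 8.09, with an exact 95% interval of 3.83 to 19.6 for counting error only.

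The call did not survive the loss of any library. Its adjusted p was 0.0586 without MM3, 0.0832 without MM4, 0.118 without MM5, 0.0742 without CT1, 0.156 without CT3 and 0.134 without CT5. The log2 fold change ran from 2.29 without MM5 to 3.35 without CT1. It was also not called with limma-voom (0.0825) or with an offset for effective length (0.122). The effective length that RSEM gave this gene ranged 3.73-fold among libraries, and on the TPM scale the groups touched, at 0.14, 0.29 and 0.50 TPM in myeloma MM3, MM4 and MM5 and 0.05, 0.04 and 0.14 TPM in control CT1, CT3 and CT5. Macrophage and monocyte markers summed to 66.4, 159 and 510 CPM in myeloma MM3, MM4 and MM5, against 119, 46.8 and 82.3 CPM in control CT1, CT3 and CT5. They were highest in the library where Slc7a11 was highest. C1qa and Fcgr1 were called higher, 2 of the 9 tested, beside 6.33% of all genes tested. Fcgr1, with 4, 3 and 10 counts in control CT1, CT3 and CT5, entered the test through its myeloma libraries alone. Plasma cell markers, at 293, 404 and 562 CPM in myeloma MM3, MM4 and MM5 and 226, 210 and 155 CPM in control CT1, CT3 and CT5, were highest in the same library, and the part of either cell type in the result was not tested.

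The promoter of Slc7a11 is shown because this gene is known as a target of ATF4, the transcription factor of the amino acid response. It spans 3:50443614-50443863 on the minus strand of GRCm38.p6, 250 bases before the RefSeq start. The capitals mark the letters TGATGNAA, the core of the amino acid response element, found 66 bases before the start on the gene's strand, and again 47 bases before it on the opposite strand.
Slc7a11: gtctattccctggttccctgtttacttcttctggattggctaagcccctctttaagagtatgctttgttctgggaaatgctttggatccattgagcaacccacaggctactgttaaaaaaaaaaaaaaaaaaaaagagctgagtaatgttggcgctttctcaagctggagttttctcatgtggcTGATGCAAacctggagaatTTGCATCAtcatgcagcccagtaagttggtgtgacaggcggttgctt
On both strands the core occurs in 3.91% of 27025 genes, and at 2 or more positions in 13 of them (0.0481%). Of the 7 members with a promoter in the RefSeq table, 1 held this core, 4 held TGACNNNGC (Slc38a2, Slc7a1, Slc7a6 and Slc43a1) and 1 held the E-box CACGTG that MYC and its partner MAX bind (Slc43a1, 64 bases before the start). The E-box occurs in 6.86% of all genes. Among 27 amino acid response genes with an entry, 9 held TGATGNAA. These matches are descriptions of letters in a window.

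Slc7a1 (CAT1, 5:148327410-148399904, minus strand), the arginine and lysine carrier, held 46.1, 44.6 and 52.1 CPM in myeloma MM3, MM4 and MM5, against 44.9, 55.8 and 53.7 CPM in control CT1, CT3 and CT5. The groups overlapped, and the log2 fold change of -0.11 (SE 0.11; edgeR adjusted p = 0.563) was not called. Slc43a1 (LAT3, 2:84838850-84863594, plus strand), a carrier of large neutral amino acids, held 7.45, 7.84 and 18.9 CPM in myeloma MM3, MM4 and MM5, against 10.5, 13.8 and 14.95 CPM in control CT1, CT3 and CT5. MM3 and MM4 lay below all controls and MM5 above them. The log2 fold change was -0.20 (SE 0.35; edgeR adjusted p = 0.768), and -0.78 (adjusted p = 0.0633) without MM5. Without MM3 it was 0.024, and without MM4 it was 0.0089.

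**Figure D4:**
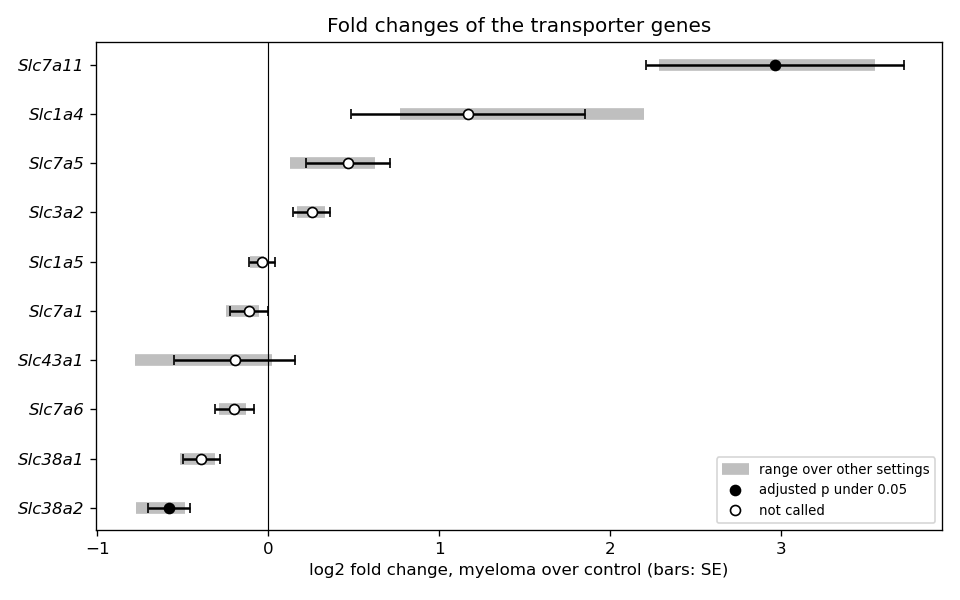
Log2 fold change of each transporter, myeloma over control, with its SE as a bar, and a grey band from the lowest to the highest value over all other settings tried. Filled points mark adjusted p under 0.05 (Slc7a11 at 2.96 and Slc38a2 at -0.58), and the grey band of Slc43a1 crosses 0.

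MM5 stood high for Slc7a5, Slc43a1 and Slc7a11 alike. The 5 genes whose log2 CPM profile over the 6 libraries lay closest to that of Slc7a5 were Capn5, 4931414P19Rik, RASGEF1B, Abi3 and Abcb10. Their root mean square differences from it, after centring each gene on its mean, were 0.07, 0.08, 0.10, 0.11 and 0.12 on the log2 scale. Capn5, for example, held 4.83, 5.26 and 8.84 CPM in myeloma MM3, MM4 and MM5, against 3.98, 4.29 and 5.15 CPM in control CT1, CT3 and CT5. With 13235 genes and 6 libraries such likeness is a description.

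Other amino acid transporters of the plasma membrane and lysosome held few calls. Of 47 such genes 18 had enough counts to be tested, none was called higher and 1 was called lower, with a median log2 fold change of -0.02. Over all genes tested, 6.33% were called higher and 4.69% lower. The gene called lower was Slc6a6, the taurine carrier, at 94.0, 84.8 and 104.7 CPM in myeloma MM3, MM4 and MM5, against 123.8, 128.9 and 118.1 CPM in control CT1, CT3 and CT5. Its groups did not overlap (-0.39 ± 0.10 SE in log2 fold change, edgeR adjusted p = 0.0343). It was called in 1 of the 6 fits that left out a library, the fit without MM5 (0.0180). Its adjusted p was 0.0878 without MM3, 0.106 without MM4, 0.0659, 0.131 and 0.0642 without CT1, CT3 and CT5, and 0.0953 with the effective-length offset.

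The list of amino acid sensing and mTORC1 genes held 39 tested genes, 2 called higher and 2 lower, with a median of -0.02. The shares over all genes tested were 6.33% higher and 4.69% lower. Eif4ebp1, a translation repressor that mTORC1 phosphorylates, had a log2 fold change of 0.98 (SE 0.23; edgeR adjusted p = 0.0308). Its levels were 11.3, 15.1 and 19.4 CPM in myeloma MM3, MM4 and MM5, against 7.18, 7.65 and 8.28 CPM in control CT1, CT3 and CT5. Lamtor5, a subunit of the lysosomal Ragulator complex, rose by 0.54 (SE 0.11, adjusted p = 0.0205), the mTORC1 subunit gene Rptor fell by 0.34 (SE 0.09, adjusted p = 0.0448) and Sesn3, which encodes an mTORC1-inhibiting sestrin, fell by 0.41 (SE 0.09, adjusted p = 0.0252), all on the log2 scale. None of the 4 genes was called without MM4 (0.0702 to 0.101), CT3 (0.0914 to 0.148) or CT5 (0.0723 to 0.126). Rptor was also not called without MM3 (0.0796), MM5 (0.0837) or CT1 (0.0540), Eif4ebp1 without MM5 (0.0614) or CT1 (0.0749), and Lamtor5 (0.0540) and Sesn3 (0.0584) without MM3. With the effective-length offset the log2 fold change of Rptor was -0.17 (0.608) and Eif4ebp1 was not called (0.0515), and limma-voom did not call Rptor (0.0527). On the TPM scale the Rptor groups overlapped, at 9.29 to 16.06 TPM in myeloma and 13.94 to 17.64 TPM in controls. The Lamtor5 groups also overlapped in TPM, while those of Eif4ebp1 and Sesn3 did not.

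Among genes of the amino acid response, 6 of 27 tested were called higher and 1 lower, beside 6.33% and 4.69% of all genes tested. The median log2 fold change was 0.23, beside 0.02 over all genes. The list holds mostly genes downstream of ATF4, but also Atf4 itself and an upstream kinase gene. Phgdh, which encodes the entry enzyme of serine synthesis, stood at 59.4, 61.7 and 65.99 CPM in myeloma MM3, MM4 and MM5, against 45.2, 46.0 and 46.6 CPM in control CT1, CT3 and CT5 (0.44 ± 0.09 SE in log2 fold change, edgeR adjusted p = 0.0147). Its groups did not overlap. The transcription factor Atf5 rose by 1.21 (SE 0.25, adjusted p = 0.0197), the stress factor gene Ddit3 by 0.78 (SE 0.17, adjusted p = 0.0226) and the alanyl-tRNA synthetase gene Aars by 0.49 (SE 0.11, adjusted p = 0.0252), while the glutamyl-prolyl-tRNA synthetase gene Eprs fell by 0.30 (SE 0.08, adjusted p = 0.0376), all log2. Atf4 itself, at 177.5, 176.1 and 188.4 CPM in myeloma MM3, MM4 and MM5 and 191.3, 292.3 and 206.7 CPM in control CT1, CT3 and CT5, was not called (log2 fold change -0.35, adjusted p = 0.161).

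The number of these genes called higher depended on which library was left out. It was 5 without MM3, 0 without MM4, 4 without MM5, 3 without CT1, 0 without CT3 and 2 without CT5. Phgdh lost its call without MM4 (adjusted p = 0.0510) or CT3 (0.0702). Atf5 lost it without MM4 (0.0645), CT3 (0.0713) or CT5 (0.0705). Ddit3 was called in 1 of the 6 smaller fits, that without MM5 (0.00690), and Eprs in the same 1 (0.0434), with adjusted p in the others of 0.0623 to 0.0899 for Ddit3 and 0.0824 to 0.108 for Eprs. Aars was called in 1 of them, without CT5 (0.0425), and had 0.0508 to 0.0925 in the others. Aars was also not called with library sizes alone (0.0513) or the effective-length offset (0.0591), nor Eprs with that offset (0.133). In TPM the groups of Ddit3 and Aars overlapped, while those of Phgdh, Atf5 and Eprs did not. Asns, the asparagine synthetase, had 1.78, 7.24 and 12.95 CPM in myeloma MM3, MM4 and MM5 and 2.97, 1.20 and 2.03 CPM in control CT1, CT3 and CT5, overlapped between groups and was not called (log2 fold change 1.81, adjusted p = 0.107); it and Atf4 are named outside the naming rule. Plasma cell markers summed to 293, 404 and 562 CPM in the myeloma libraries, against 226, 210 and 155 CPM in the control libraries. Of the 9 tested, 3 were called higher, beside 6.33% of all genes tested. Of these 3, Fkbp11 entered the test through its myeloma libraries alone. The part of plasma cells in the levels of the amino acid response genes was not tested.

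Enzymes that use the imported amino acids had 1 of 26 tested genes called higher and 2 lower, with a median of 0.02. The shares over all genes tested were 6.33% and 4.69%. Gpx4, the glutathione-dependent lipid peroxidase, was higher (0.35 ± 0.07 SE in log2 fold change, edgeR adjusted p = 0.0211). It held 183.3, 190.1 and 177.3 CPM in myeloma MM3, MM4 and MM5, against 143.8, 146.0 and 143.6 CPM in control CT1, CT3 and CT5. Mat2a, which makes S-adenosylmethionine from methionine, fell by 0.46 (SE 0.10, adjusted p = 0.0252), and Glul, glutamine synthetase, fell by 0.34 (SE 0.09, adjusted p = 0.0428), both log2. None of these 3 was called without MM3 (0.0595 to 0.117), MM4 (0.0773 to 0.134), CT3 (0.0845 to 0.132) or CT5 (0.0687 to 0.0976), and Gpx4 (0.0553) and Glul (0.0767) were not called without CT1. Gpx4 was also not called with library sizes alone (0.0581), nor Glul with the effective-length offset (0.110). On the TPM scale the Gpx4 groups overlapped, while those of Mat2a and Glul did not.

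Of 18 known transcriptional regulators of the transporters, 2 were called higher and 3 lower, beside 6.33% and 4.69% of all genes tested. Their median log2 fold change was -0.06. Foxo1, a transcription factor restrained by growth factor signalling, held 222.3, 217.1 and 234.1 CPM in myeloma MM3, MM4 and MM5, against 359.6, 323.6 and 340.8 CPM in control CT1, CT3 and CT5 (-0.60 ± 0.08 SE in log2 fold change, edgeR adjusted p = 0.00330). Bach2, a transcriptional repressor, fell by 1.05 (SE 0.15, adjusted p = 0.00447), and Mga, a MAX-binding factor, fell by 0.53 (SE 0.08, adjusted p = 0.00555), both log2. These 3 passed whichever library was left out, and Bach2 alone lost its call under another setting, the effective-length offset (0.163). The MYC antagonist gene Mxd1 rose by 0.68 (SE 0.15, adjusted p = 0.0225) and Keap1, the inhibitor of the antioxidant factor NRF2, by 0.57 (SE 0.14, adjusted p = 0.0392), both log2. In TPM the groups of Mxd1 and Keap1 overlapped, while those of Foxo1, Bach2 and Mga did not. Mxd1 was not called without MM3 (0.0654), MM4 (0.0647), CT1 (0.0578) or CT3 (0.0991), and Keap1 without MM3 (0.123), MM5 (0.0659), CT1 (0.107) or CT3 (0.148), with library sizes alone (0.0595) or with the effective-length offset (0.0701). Myc, a regulator of Slc7a5 and Slc1a5 in activated T cells and named here outside the rule, held 71.0, 69.5 and 80.8 CPM in myeloma MM3, MM4 and MM5 and 84.1, 88.6 and 55.2 CPM in control CT1, CT3 and CT5, and was not called (log2 fold change -0.04, SE 0.16, adjusted p = 0.902).

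**Figure D5:**
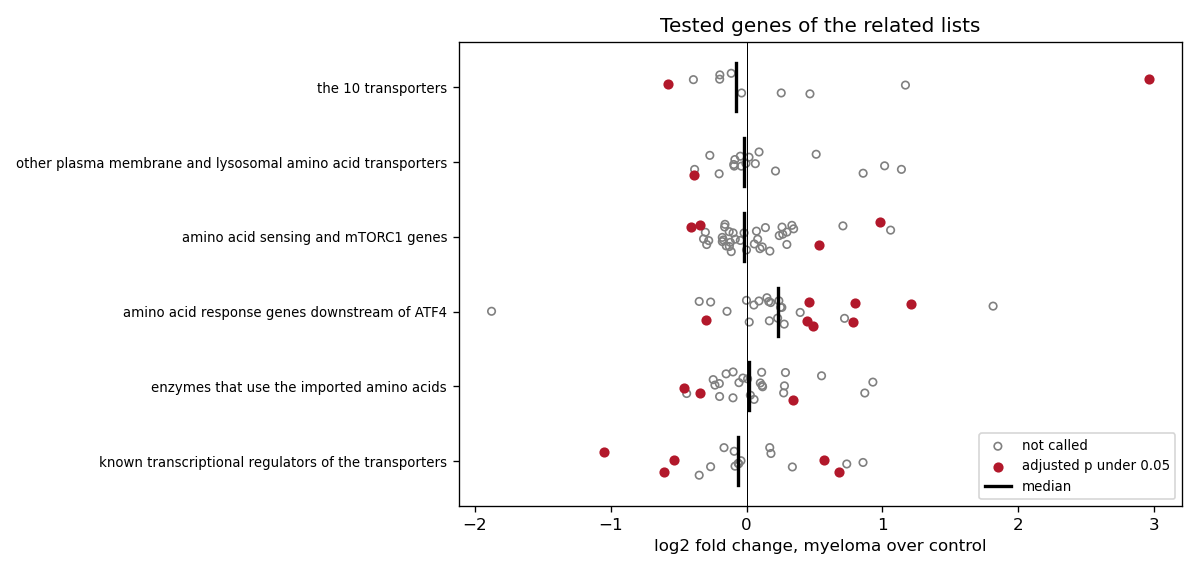
Log2 fold change, myeloma over control, of every tested gene in the 10 transporters and the 5 related lists, one point per gene with random vertical spread. Filled points mark adjusted p under 0.05 and black lines are medians, which run from -0.07 in the transporters to 0.23 in the amino acid response genes.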

How the data were processed

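Total RNA of sorted CD4+ FOXP3-GFP+ marrow cells was extracted (RNeasy Micro) and sequenced from NEBNext Ultra libraries, per the labels' protocols. Strand was not stated to be used in counting; no annotated exon of another gene overlaps an exon of a member. Per the submitters' processing notes the tools were STAR, RSEM, Picard and DESeq2 and the build mm10, with no versions stated there. The authors' deposited expected counts are RSEM estimates per gene and are not normalized, and the deposited TPM values are scaled by the authors' RSEM run for effective length and library total, per the file headers. Effective length served in 1 alternative. Gene symbols matched for 47224 of 47643 IDs (GENCODE M21, GRCm38, from which positions come).

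Expected counts were rounded. Genes passing filterByExpr (minimum count 10, minimum total 15) were scaled by TMM and tested with edgeR 4.0.16 (glmQLFit, glmQLFTest; R 4.3.3), myeloma over control, with Benjamini-Hochberg adjustment over 13235 genes and a threshold of 0.05. The SE is the log2 fold change divided by the root of F. CPM uses TMM-scaled library sizes. All 10 members passed the filter, Slc7a11 through its myeloma libraries. Alternatives used DESeq2 1.42.0, limma 3.58.1, other scalings, filters, a replicate block and each library left out. The naming rule takes all members, up to 4 called genes per direction and list with the smallest p, the light chains Slc7a7 and Slc7a8, and the 5 profiles nearest Slc7a5 (log2 CPM, prior count 2). Members and lists were chosen with earlier results of these data known.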

Additional observations from a re-analysis of the deposited data

How the results depend on the processing

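Over 17 other settings, the 10 members gave 167 values with an adjusted p, of which 143 kept their direction and side of the threshold. The 12 that lost a call belonged to Slc7a11 and Slc38a2, the 10 that gained it all to Slc38a1, and 2 of Slc43a1 turned sign. The single higher member was 0 with at least 1 CPM in 3 samples, where Slc7a11 was not tested, with DESeq2, which gave it no adjusted p, and with limma-voom, the effective-length offset and the replicate block; it was 0 in all fits without 1 library. The members called lower were 2 with no filter, the 1 CPM filter, RLE or upper-quartile scaling, library sizes alone, DESeq2, limma-voom, robust dispersion and without immunoglobulin, haemoglobin and mitochondrial genes, and 0 to 2 without 1 library. Over all genes, 1337 were higher and 1102 lower with no filter, 964 lower with DESeq2, 405 lower with the effective-length offset, and 331 to 836 higher and 123 to 546 lower without 1 library. With library sizes alone the split was 633 higher and 1004 lower, against 838 and 621 with TMM.

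Numbers 3 and 5 occur in both groups, but nothing states that they pair mice, and deviations of same-numbered libraries correlated at 0.03 and 0.10. With the replicate block, 362 genes were higher and 142 lower, and the lists gave 0 calls, except 1 higher and 3 lower among the regulators and 1 lower member, Slc38a2; Slc38a1 had an adjusted p of 0.171 and Rptor 0.142. The other transporters had 0 lower with the effective-length offset and 0 to 1 without 1 library. The sensing genes had 1 higher with the effective-length offset, 4 lower with library sizes alone, 5 lower with no filter and 1 lower with limma-voom, and 0 to 1 in each direction without 1 library. The amino acid response genes had 3 lower with no filter, 0 lower with the effective-length offset, and 0 to 5 higher and 0 to 1 lower without 1 library. The enzymes had 0 higher with library sizes alone, 2 higher with no filter or limma-voom, 1 lower with the effective-length offset, and 0 to 1 higher and 0 to 2 lower without 1 library. The regulators had 1 higher with library sizes alone or the effective-length offset, 4 higher with no filter or DESeq2, and 0 to 2 higher without 1 library. Fits without 1 library have fewer samples. For the other changes the cause was not tested.

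Leaving out 1 library moved the difference in the Slc7a5 to Slc3a2 ratio over -0.0109 (MM5 left out) to 0.0272 (CT5 left out), with -0.00998 when CT1 was left out. The same fits gave Slc43a1 log2 fold changes of -0.78 to 0.024, above 0 without MM3 (0.024) and MM4 (0.0089). They gave -0.35 to 0.11 for Slc7a7, above 0 without MM3, MM4 and CT5 (0.04, 0.11 and 0.07) and also 0.033 with the replicate block, and -0.49 (without MM5) to 1.25 for Slc7a8. Depth limits Slc7a11 and Slc1a4, which had at most 33 and 18 counts in a library.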
